A study of Homo sapiens with 45 samples.

Results

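Messenger RNA of 40 genes of mitosis and the G2/M transition was followed in HCT116 cells, a line established from a human colon cancer, after siRNA against HNRNPK. The genes were chosen by symbol, and all 40 were found among the 28278 gene names of the main count table and in the separate count tables of a further control. In dividing cells, cyclin A and cyclin B proteins switch on the kinase CDK1 at the end of G2, the spindle then captures chromosomes at their kinetochores, and the spindle checkpoint holds cells back until every chromosome is attached. The anaphase-promoting complex next marks securin and cyclin B for destruction, so that chromosomes separate and cytokinesis can follow. The messenger RNAs of these genes peak together late in the cycle under the transcription factors B-MYB with the MuvB core and FOXM1, and are held down earlier by the DREAM complex; their levels in a culture are therefore widely read as a sign of proliferation.

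The HNRNPK protein, hnRNP K, is an RNA-binding protein of the nucleus that also binds single-stranded DNA. All cells were transfected with 25 nM siRNA and collected after 72 h. The compared groups were 4 libraries of a nontargeting control named siNTC5, 4 libraries of HNRNPK siRNA named siHNRNPK, and 2 libraries of a nontargeting control named Scramble, which the labels give the same treatment name as siNTC5. In siNTC5 and in siHNRNPK alike, replicates 1 and 2 were made with the TruSeq stranded mRNA kit and replicates 3 and 4 with the Illumina Stranded mRNA Ligation kit, from RNA purified on the Maxwell system. The Scramble libraries were TruSeq libraries from RNA purified with Qiagen RNeasy and came in count tables of their own. No label states that replicates were separate cultures, so the p-values measure the spread between these libraries, which may be technical. The knockdown is transient and acts on the whole culture, and 1 cell line was used. Lamin B1 and histone mark domains called from chromatin immunoprecipitation (ChIP) of the same line were also at hand, as 1 list per antibody and siRNA.

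Total counts were between 12107280 and 23633851 in the 8 libraries of siNTC5 and siHNRNPK, and 59209169 and 55007171 in the Scramble libraries. HNRNPK itself was at 934, 967, 822 and 814 CPM (read counts scaled to library size after TMM normalisation) in siNTC5 replicates 1 to 4 and at 250.3, 223, 157 and 164 in siHNRNPK. The groups were far apart, with siHNRNPK at 22.4% of siNTC5, which is -2.17 ± 0.06 on the log2 scale (SE, edgeR adjusted p 7.29e-15, quasi-likelihood test; two-sided exact permutation p 0.0286, the smallest that 4 against 4 allows). Of 8 colon epithelial markers, EPCAM, CDH1, KRT8, KRT18, KRT19 and CDX2 were expressed, while VIL1 and CEACAM5 were near 0, at 0.315 and 0.0659 CPM on average in siHNRNPK. Of 9 markers of other cell types, COL1A1 averaged 60.1 CPM in siNTC5 and 97.6 in siHNRNPK, VWF 0.626 and 1.73, and the other 7 were lower than VWF in either group, with CD3E of T cells at 0 in all 8 libraries. COL1A1 and VWF passed the test; their part in the results was not tested.

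The promoters of genes of this class are known for the CCAAT box, bound by NF-Y, and for the cell cycle genes homology region (CHR), bound by the MuvB core. Promoter windows of 300 bases, from 250 before to 50 after the annotated start, were taken from RefSeq (GRCh38.p14) and matched 33 of the 40 genes with 40 windows; FOXM1, AURKA, BUB3, TTK, UBE2C, BIRC5 and TPX2 had no match. CCAAT (or ATTGG, its reverse complement) lay in 77.5% of these 40 windows and in 34.6% of all 35116 windows. The CHR was searched as TTTGAA, its reverse complement TTCAAA, and TTCGAA, which reads the same on either strand; a match can share an end base with a CCAAT box. It lay in 70.0% against 16.4% of windows. Windows with both made up 57.5% against 6.4%. A match is a description of letters, not a bound site. The 150 bases before the start are printed for the 6 genes with both motifs in their window and the largest change in either direction after HNRNPK siRNA, so that genes that fell, rose or did not pass the test can be read side by side; capitals mark CCAAT boxes (on either strand) and CHR matches that lie whole within the printed stretch.
DLGAP5 (chr14:55191586-55191735, minus strand): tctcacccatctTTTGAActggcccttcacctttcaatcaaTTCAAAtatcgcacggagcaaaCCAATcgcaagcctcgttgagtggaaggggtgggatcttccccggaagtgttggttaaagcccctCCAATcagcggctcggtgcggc
CCNB2 (chr15:59104996-59105145, plus strand): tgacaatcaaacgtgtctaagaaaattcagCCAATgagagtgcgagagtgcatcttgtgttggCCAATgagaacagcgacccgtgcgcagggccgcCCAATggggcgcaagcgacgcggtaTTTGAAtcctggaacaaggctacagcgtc
SPC25 (chr2:168890431-168890580, minus strand): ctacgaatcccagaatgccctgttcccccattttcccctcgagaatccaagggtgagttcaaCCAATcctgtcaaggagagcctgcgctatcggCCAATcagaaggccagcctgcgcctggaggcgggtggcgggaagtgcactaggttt
KIF4A (chrX:70289954-70290103, plus strand): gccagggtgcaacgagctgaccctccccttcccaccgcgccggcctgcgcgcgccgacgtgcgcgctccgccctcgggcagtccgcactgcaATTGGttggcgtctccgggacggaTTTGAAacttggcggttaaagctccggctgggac
BUB1 (chr2:110678064-110678213, minus strand): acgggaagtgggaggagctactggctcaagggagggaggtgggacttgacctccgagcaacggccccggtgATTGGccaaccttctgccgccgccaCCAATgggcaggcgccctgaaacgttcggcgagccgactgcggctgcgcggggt
ECT2 (chr3:172750576-172750725, plus strand): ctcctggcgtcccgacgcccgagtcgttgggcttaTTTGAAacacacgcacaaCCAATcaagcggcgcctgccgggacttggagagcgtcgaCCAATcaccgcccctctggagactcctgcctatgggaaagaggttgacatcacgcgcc

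DLGAP5, the gene of the 40 that fell most, and CCNB2, the gene that rose most, carried the same motif pair: DLGAP5 has 2 CCAAT boxes and 2 CHR matches in the printed stretch, and CCNB2 has 3 CCAAT boxes upstream of 1 CHR match at bases -29 to -24. In BUB1 the CHR match lies past the start, at bases 2 to 7, and in SPC25 matches lie across the start and further upstream, so neither shows a CHR in capitals.

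After HNRNPK siRNA the 40 genes moved little and in both directions. Against siNTC5, 17 rose, 5 fell and 18 did not pass the test (edgeR's quasi-likelihood test with library kit in the model, adjusted p under 0.05 over all 13933 genes tested). Of all genes tested, 71.5% passed, 35.5% higher and 36.1% lower, so the share that passed was smaller among the 40, the share that rose somewhat larger and the share that fell smaller. The median log2 fold change over the 40 was 0.06 and over all genes -0.0042; taken without sign, the medians were 0.17 and 0.41. A change of 0.5 or more on the log2 scale, in either direction, was reached by 5 of the 40, namely CCNB2, TTK, DLGAP5, FOXM1 and SPC25, against 41.4% of all genes. In 13 of the 40 every siHNRNPK library lay above every siNTC5 library, in 4 every one lay below, and in 23 the groups overlapped; the groups did not overlap for 56.5% of all genes. The medians and shares of all genes take in every gene that passed the filter on low counts, weakly expressed ones included. They were not matched to the 40 for level. The summed level of the 40 genes was 6302, 6599, 5675 and 5828 CPM in siNTC5 replicates 1 to 4, and 6578, 6701, 6477 and 6367 in siHNRNPK, ranges that overlap. Within the Ligation kit both siHNRNPK sums lay above both siNTC5 sums. Within TruSeq, siHNRNPK replicate 1 lay just below siNTC5 replicate 2. RNA here comes from whole cultures, so a change in the share of cells in G2 and mitosis cannot be told apart from a change in RNA of a gene per cell. With unscaled library totals the split was 14 higher and 7 lower (33.0% and 38.9% of all genes), and with no filter on low counts it was 15 and 7 (24.7% and 25.7%).

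**Figure D1:**
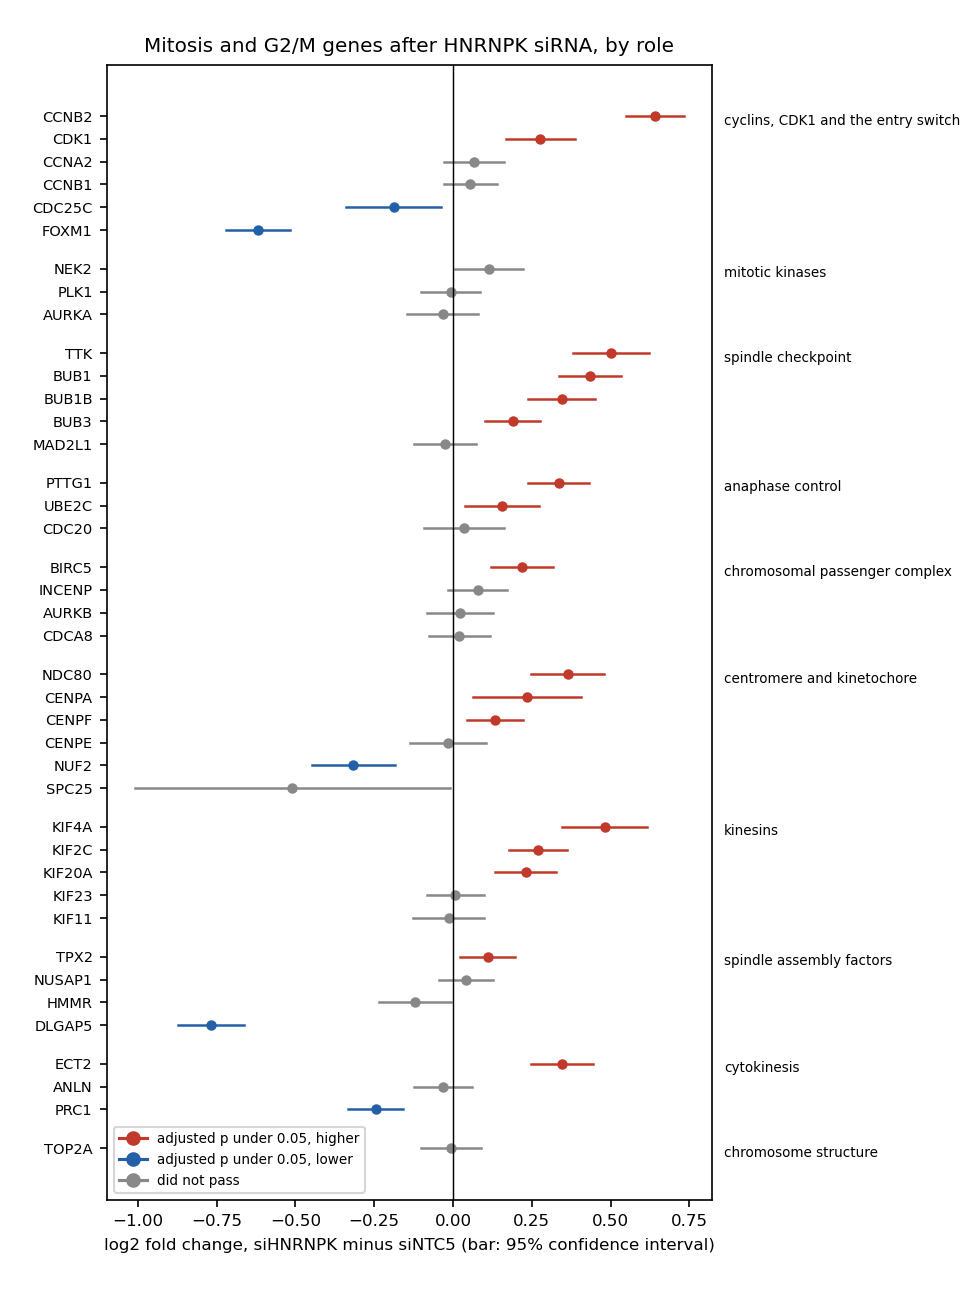
Log2 fold change of each of the 40 genes (siHNRNPK minus siNTC5, x axis), grouped by role, with the 95% confidence interval from edgeR as a bar; red and blue points passed an adjusted p of 0.05 and grey points did not. The points run from -0.77 (DLGAP5) to 0.64 (CCNB2). The spindle checkpoint, anaphase control, chromosomal passenger complex and kinesin groups hold red and grey points but no blue ones.

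Genes of the mitotic entry switch divided. Of 6, CCNB2 and CDK1 rose, FOXM1 and CDC25C fell, and CCNA2 and CCNB1 did not pass. CCNB2 (chr15:59105146-59125045 in RefSeq GRCh38.p14), which encodes cyclin B2, a regulatory partner of CDK1, was at 85.3, 88.9, 78.3 and 79.7 CPM in siNTC5 replicates 1 to 4 and at 133, 135, 126 and 124 in siHNRNPK. Every siHNRNPK library was above every control library, and the TruSeq libraries were the higher ones in each group. Its log2 fold change was 0.64 ± 0.04 (SE, edgeR adjusted p 2.92e-10), or 156% of the control mean. CCNB1, the gene of the major mitotic cyclin, was at 273 ± 39.5 CPM in siNTC5 and 283 ± 30.7 in siHNRNPK (SD, n = 4 each); the fitted log2 fold change was 0.06 (95% interval -0.03 to 0.14). CCNB1 passed with upper-quartile scaling (0.09, edgeR adjusted p 0.0459) and with a mean of at least 50 counts (0.0492). CCNA2, for cyclin A2, gave 0.07 (-0.03 to 0.16). CDK1, the kinase that drives entry into mitosis, rose by 0.28 ± 0.05 (SE, edgeR adjusted p 1.14e-04), although siHNRNPK replicate 4 at 184 CPM lay below siNTC5 replicates 1 and 2 at 189.8 and 201.

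FOXM1 (chr12:2857680-2877174), the forkhead transcription factor that activates many G2/M genes, was at 157, 171, 121 and 127 CPM in siNTC5 replicates 1 to 4 and at 109, 101, 80.8 and 84.7 in siHNRNPK. The groups did not overlap, and within each kit the knockdown libraries were lower, at 64.0% of control in TruSeq and 66.5% in Ligation. The log2 fold change was -0.62 ± 0.05 (SE, edgeR adjusted p 1.65e-09). FOXM1 overlaps ITFG2 and RHNO1 in RefSeq, and whether counting used strand is not given in the sources used here. CDC25C, the phosphatase that removes the inhibitory phosphates from CDK1, was at 27.6 ± 1.52 CPM in siNTC5 and 24.3 ± 2.10 in siHNRNPK (SD, n = 4 each), which is a log2 fold change of -0.19 ± 0.07 (SE, edgeR adjusted p 0.0256). That call was lost in DESeq2 (adjusted p 0.0547), in either kit alone, with upper-quartile scaling (0.0645), a mean of at least 50 counts (0.0528) or no kit term (0.0794), and without siNTC5 replicate 2 (0.0539), siNTC5 replicate 3 (0.0598) or siHNRNPK replicate 1 (0.0848).

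In the spindle checkpoint group 4 of 5 genes rose, and the median log2 fold change was 0.35. TTK (chr6:80004649-80042527), the MPS1 kinase that starts checkpoint signalling at unattached kinetochores, was at 98.8, 106, 87.1 and 99.7 CPM in siNTC5 replicates 1 to 4 and at 129.5, 140.5, 147 and 138 in siHNRNPK. No control library reached the lowest knockdown library. TTK had a log2 fold change of 0.50 ± 0.06 (SE, edgeR adjusted p 3.20e-07). BUB1 (chr2:110637528-110678063), the checkpoint kinase that loads other checkpoint proteins onto kinetochores, was at 190.0, 195, 175.5 and 182 CPM in siNTC5 and at 234.5, 261, 259 and 250.3 in siHNRNPK. These groups were apart as well. BUB1 rose by 0.44 ± 0.05 (SE, edgeR adjusted p 1.23e-07).

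BUB1B, which encodes the inhibitor BUBR1 of the mitotic checkpoint complex, rose by 0.35 ± 0.05 (SE, edgeR adjusted p 6.10e-06), and the groups did not overlap. Its RefSeq span is shared with the BUB1B-PAK6 readthrough gene, so reads of these genes may not be separable. BUB3, the partner that docks BUB1 and BUBR1, rose by 0.19 ± 0.04 with overlapping groups (edgeR adjusted p 4.71e-04, and 0.0531 with no kit term). MAD2L1, which encodes the checkpoint protein MAD2, did not pass, with a log2 fold change of -0.03 (95% interval -0.13 to 0.07).

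Genes of the anaphase step were higher for PTTG1 and UBE2C and did not pass for CDC20. PTTG1 (chr5:160421855-160428744), which encodes securin, the inhibitor of separase, was at 106, 100.4, 86.9 and 89.4 CPM in siNTC5 replicates 1 to 4 and at 124, 127, 115 and 116 in siHNRNPK. All knockdown libraries were above all control libraries. The log2 fold change was 0.33 ± 0.05 (SE, edgeR adjusted p 2.76e-06). UBE2C, the ubiquitin-conjugating enzyme of the anaphase-promoting complex, had a log2 fold change of 0.16 ± 0.06 (SE, edgeR adjusted p 0.0195) with overlapping groups. It missed the threshold with unscaled totals (0.0645), no filter (0.0539), no kit term (0.117), in TruSeq libraries alone (0.487), and without siNTC5 replicate 4 (0.0945) or siHNRNPK replicate 2 (0.0858), 3 (0.0980) or 4 (0.0603). CDC20, the activator of that complex and target of the checkpoint, was at 378, 459, 295 and 308 CPM in siNTC5 and at 400.2, 390.3, 319 and 352.5 in siHNRNPK. All knockdown values lie within the range of the control libraries, and the log2 fold change was 0.03 (95% interval -0.09 to 0.16); without siNTC5 replicate 2, the highest library, it was 0.12 and passed (edgeR adjusted p 0.0213), as in Ligation libraries alone (0.0136).

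Kinetochore genes moved apart, including within the NDC80 complex, the 4-subunit assembly that holds microtubules and of which NDC80, NUF2 and SPC25 are members here. NDC80 rose from 48.3 ± 0.75 CPM in siNTC5 to 62.2 ± 3.17 in siHNRNPK (SD, n = 4 each), which is a log2 fold change of 0.36 ± 0.06 (SE, edgeR adjusted p 9.60e-06) with no overlap. NUF2 (chr1:163321954-163355759), the subunit that pairs with NDC80 at the microtubule end, was at 51.0, 51.6, 55.8 and 62.3 CPM in siNTC5 replicates 1 to 4 and at 41.2, 40.9, 51.6 and 43.8 in siHNRNPK. Ligation libraries were higher than TruSeq libraries in each group, siHNRNPK replicate 3 reached the lower control libraries, and within each kit the knockdown libraries were lower. NUF2 fell by 0.32 on the log2 scale (SE 0.06, edgeR adjusted p 1.99e-04).

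SPC25 (chr2:168861521-168890430), the subunit that anchors the complex to the kinetochore, was hardly counted: its libraries held 47, 71, 26 and 20 reads in siNTC5 and 38, 22, 12 and 10 in siHNRNPK. In CPM that was 2.8, 3.0, 1.7 and 1.1 against 2.5, 1.6, 1.0 and 0.82, with overlapping groups and higher values in the TruSeq libraries. The log2 fold change of -0.51 ± 0.24 did not pass (edgeR adjusted p 0.0627); it did without siNTC5 replicate 4 (0.0463) or siHNRNPK replicate 1 (0.0297) and with unscaled totals (0.0484) or no filter (0.0451). SPC25 overlaps NOSTRIN in RefSeq. CENPA, the centromeric histone H3 variant, had a log2 fold change of 0.23 ± 0.08 (SE, edgeR adjusted p 0.0158), lost with no kit term (0.0510), in TruSeq libraries alone (0.244), and without siNTC5 replicate 3 (0.0586) or siHNRNPK replicate 4 (0.115). CENPF, a protein of the outer kinetochore, had one of 0.13 ± 0.04 (edgeR adjusted p 0.0094), lost without siHNRNPK replicate 2 (0.0552), in Ligation libraries alone (0.160) and with unscaled totals (0.0652). CENPE, the kinetochore motor, gave -0.02 (95% interval -0.14 to 0.10) and did not pass.

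Among 5 kinesin motors, KIF4A, KIF2C and KIF20A rose, and KIF11 and KIF23 did not pass. KIF4A (chrX:70290104-70420886), the chromokinesin that works on chromosome arms and the central spindle, was at 82.2, 100.6, 77.1 and 80.8 CPM in siNTC5 replicates 1 to 4 and at 119, 116, 116 and 124 in siHNRNPK. Control replicate 2 was the nearest to the knockdown group and still below it. The log2 fold change was 0.48 ± 0.06 (SE, edgeR adjusted p 1.98e-06). KIF2C, the microtubule depolymerase MCAK, rose by 0.27 and KIF20A, the motor MKLP2 that carries the chromosomal passenger complex to the central spindle, by 0.23 (adjusted p 1.98e-05 and 1.87e-04 in edgeR), and neither group overlapped its control. KIF11, the motor Eg5 that pushes spindle poles apart, gave -0.01 (95% interval -0.13 to 0.10), and KIF23, the centralspindlin motor, 0.0065 (-0.08 to 0.10).

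In the chromosomal passenger complex, which corrects wrong attachments, BIRC5 alone of 4 genes passed. BIRC5, which encodes survivin, was at 224, 231.5, 199 and 192 CPM in siNTC5 replicates 1 to 4 and at 241, 252, 244 and 246 in siHNRNPK. The groups did not overlap, the control libraries of the Ligation kit being the lowest. Its log2 fold change was 0.22 ± 0.05 (SE, edgeR adjusted p 4.01e-04), and in TruSeq libraries alone it was 0.12 (adjusted p 0.0871). AURKB, the kinase of the complex, INCENP, its scaffold, and CDCA8, which encodes borealin, had log2 fold changes of 0.02, 0.08 and 0.02, with 95% intervals that run no higher than 0.17 and no lower than -0.08; INCENP passed with upper-quartile scaling (edgeR adjusted p 0.0343) and with a mean of at least 50 counts (0.0330).

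None of the 3 mitotic kinases PLK1, AURKA and NEK2 passed. NEK2, a centrosome kinase, was at 66.4, 64.4, 61.3 and 62.2 CPM in siNTC5 replicates 1 to 4 and at 68.2, 68.8, 70.0 and 68.2 in siHNRNPK. The groups lay apart by a narrow margin. The log2 fold change of 0.11 ± 0.05 missed the threshold (edgeR adjusted p 0.0522) and passed without siNTC5 replicate 1 (0.0428), in Ligation libraries alone (0.0422), and with DESeq2 size factors (0.0426), upper-quartile scaling (0.0128) or a mean of at least 50 counts (0.0134). PLK1, the Polo-like kinase of mitotic entry, gave -0.0078 (95% interval -0.10 to 0.09) and AURKA, the kinase of the spindle poles, -0.03 (-0.15 to 0.08).

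Spindle assembly factors held the lowest value of the 40. DLGAP5 (chr14:55148135-55191585), which encodes HURP, a protein that stabilises kinetochore microtubules, was at 128, 141, 135 and 139 CPM in siNTC5 replicates 1 to 4 and at 76.6, 76.1, 86.5 and 80.7 in siHNRNPK. The groups were wide apart in each kit. DLGAP5 fell by 0.77 on the log2 scale (SE 0.05, edgeR adjusted p 1.33e-10), to 58.9% of control. TPX2, the activator of Aurora A, had a log2 fold change of 0.11 ± 0.04 (SE, edgeR adjusted p 0.0235), a call lost with unscaled totals (0.124), no filter (0.163), no kit term (0.0616), in TruSeq libraries alone (0.400), and without siNTC5 replicate 3 (0.118) or siHNRNPK replicate 3 (0.0974) or 4 (0.0807). HMMR, a spindle pole protein that binds microtubules, gave -0.12 ± 0.05 (edgeR adjusted p 0.0575), and passed without siNTC5 replicate 1 (0.0369) or siHNRNPK replicate 3 (0.0126) and with unscaled totals (0.0138) or no filter (0.0206). NUSAP1, a microtubule bundling protein, gave 0.04 (95% interval -0.05 to 0.13).

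Cytokinesis genes went in different directions. ECT2, the exchange factor that activates RhoA at the cleavage furrow, was at 203.5, 198, 180.5 and 194 CPM in siNTC5 replicates 1 to 4 and at 236, 241, 261 and 249 in siHNRNPK. No library of one group reached the other. ECT2 rose by 0.35 ± 0.05 (SE, edgeR adjusted p 2.86e-06). PRC1, which bundles antiparallel microtubules of the central spindle, fell by 0.25 on the log2 scale (SE 0.04, edgeR adjusted p 3.27e-05), from 230.1 ± 18.6 CPM to 194 ± 8.74 (SD, n = 4 each). All siHNRNPK libraries of PRC1 were below all control libraries; an antisense gene, PRC1-AS1, overlaps it. ANLN, the scaffold anillin of the contractile ring, gave -0.03 (95% interval -0.12 to 0.06).

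TOP2A, the topoisomerase that untangles sister chromatids, stands for chromosome structure. It was at 264, 286, 248 and 269.5 CPM in siNTC5 replicates 1 to 4 and at 260.4, 269.8, 275 and 258 in siHNRNPK. The knockdown values lie within the range of the control libraries, and the log2 fold change was -0.0068 (95% interval -0.10 to 0.09). Of the 40 genes, 20 overlap another gene in RefSeq, and reads from such stretches cannot be told apart unless counting used strand.

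**Figure D2:**
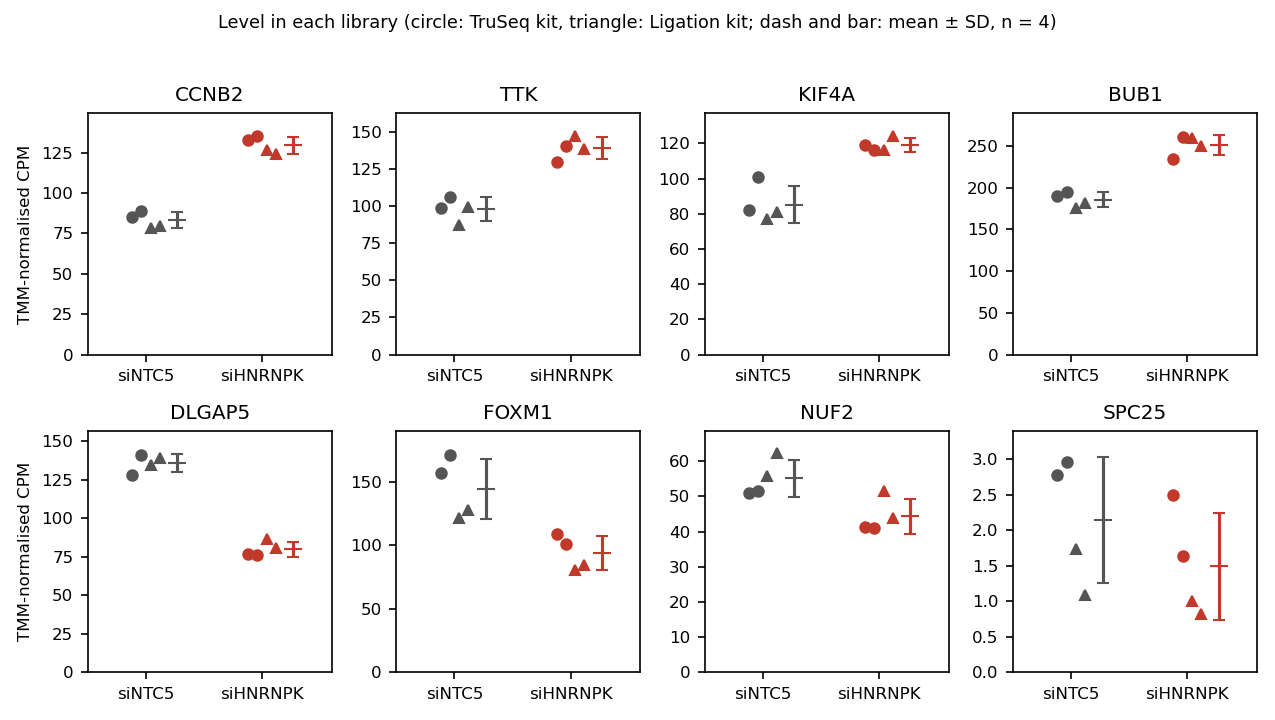
TMM-normalised CPM (y axis, from 0) of the 4 genes with the most positive and the 4 with the most negative log2 fold change, in each siNTC5 (grey) and siHNRNPK (red) library; circles are TruSeq and triangles Ligation libraries, and the dash with its bar is the mean ± SD of 4. CCNB2, TTK, KIF4A and BUB1 lie higher in all siHNRNPK libraries, DLGAP5 and FOXM1 lower in all, and NUF2 and SPC25 overlap.

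Beyond the 40, other lists of cell cycle genes were set beside them. Over all genes tested, 71.5% passed, 35.5% higher and 36.1% lower. Of 77 other mitotic genes 74 were tested and 52 passed, 20 higher and 32 lower, with a median log2 fold change of -0.02. WEE1, the kinase that restrains CDK1, rose by 1.01, and BORA, a cofactor of Aurora A in activating PLK1, by 0.52 on the log2 scale. CDC25B, a phosphatase that opposes WEE1, fell by 1.16 and CENPM, a centromere protein, by 1.09 on the log2 scale. Of 14 factors of the DREAM and MuvB complexes and NF-Y, 10 passed, 6 higher and 4 lower. In both lists the share that passed was near that of all genes. LIN9, LIN52 and LIN54 of the MuvB core rose by 0.60, 0.36 and 0.30 on that scale. E2F5, which joins DREAM, fell by 1.77 and MYBL2, the gene of B-MYB, by 0.56 on the log2 scale.

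Genes of the G1/S transition and DNA replication, the class nearest to the mitotic genes, had a median log2 fold change of -0.29. Of 40 tested, 8 rose and 25 fell, where of the 40 mitotic genes 17 rose and 5 fell. The shares over all genes tested were 35.5% higher and 36.1% lower, for this list and the next. The helicase gene MCM5 fell by 1.26 on the log2 scale; ORC6, of the origin recognition complex, rose by 0.51 and RFC4, of the clamp loader, by 0.46. Among 11 CDK inhibitors and D-type cyclins with their kinases, 2 rose and 7 fell. CDK6 rose by 1.32 and CDKN2B by 0.51, and CDKN2C and CDKN2D fell by 1.03 and 0.94 on the log2 scale. The difference between these lists was not tested.

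**Figure D3:**
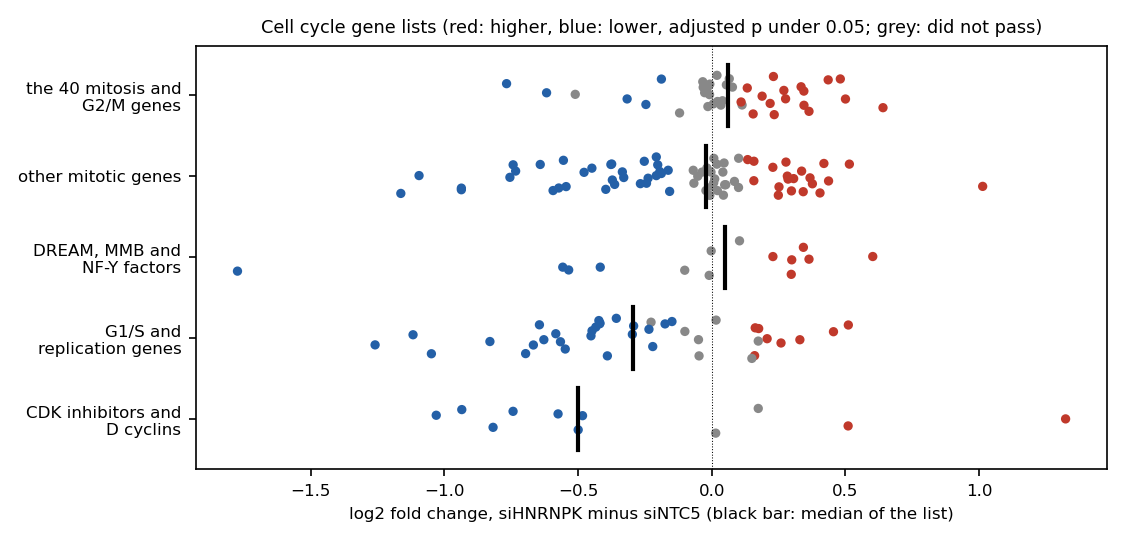
Log2 fold change (siHNRNPK minus siNTC5, x axis) of every tested gene in 5 lists, 1 row per list; red and blue points passed an adjusted p of 0.05 and the black bar is the median of the list. The 40 mitosis and G2/M genes centre at 0.06, G1/S and replication genes at -0.29.

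The knockdown was also read within each kit. The kits share no library, but whether they share RNA or cultures is not stated in the labels. In TruSeq libraries alone, 2 against 2, 17 of the 40 genes passed, against 57.8% of all genes, and in Ligation libraries alone 22 passed, against 68.1%. In both kits 16 passed, all in the same direction, where 53.0% of all genes did so and 0.0943% passed in opposite directions. Across the 40 genes the log2 fold changes of the kits had a Pearson r of 0.957, against 0.912 across 13785 genes tested in both; genes are not independent replicates, and this is a description. The sign was the same for 32 of the 40 (80.0%) and for 88.3% of all genes. DLGAP5 was at -0.81 in TruSeq and -0.72 in Ligation libraries, CCNB2 at 0.63 and 0.65, FOXM1 at -0.64 and -0.60.

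The difference in effect between the kits was called for 0 of the 40 genes by the interaction test in edgeR and for 0.129% of all genes. Of the 40, 11 were under an unadjusted p of 0.05, and DESeq2 also called 0, with 5 under that p. The fitted effect was nonetheless higher in Ligation for 36 of the 40 and lower for 4. The shares of all genes under that unadjusted p, or with a higher effect in Ligation, were not computed. These counts of the 40 therefore have no background beside them. The median difference was 0.10 on the log2 scale, against 0.02 over all genes. With each kit alone, the median log2 fold change of the 40 was 0.02 in TruSeq and 0.09 in Ligation libraries. Over all genes it was 0.0013 and -0.0063. The smallest p among the 40 was that of BIRC5, whose log2 fold change was higher by 0.21 ± 0.07 in the Ligation kit (SE, edgeR adjusted p 0.26). HNRNPK itself fell further in the Ligation libraries, with a log2 difference in effect of -0.34 ± 0.08 that did not pass (SE, edgeR adjusted p 0.1005). Kit and depth of knockdown thus went together, and the part of each was not tested. Without siNTC5 replicate 1, 2 of the 40 were called, CDC20 (0.35, edgeR adjusted p 0.0032) and KIF4A (0.36, adjusted p 0.0153), and 2.58% of all genes. The kits themselves differed in level: Ligation libraries were lower for 15 of the 40 genes and higher for 1, NUF2, where 28.5% of all genes differed, 13.2% lower and 15.2% higher. SPC25 had the largest kit difference, a log2 of -1.10 ± 0.24 (edgeR adjusted p 0.0023).

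**Figure D4:**
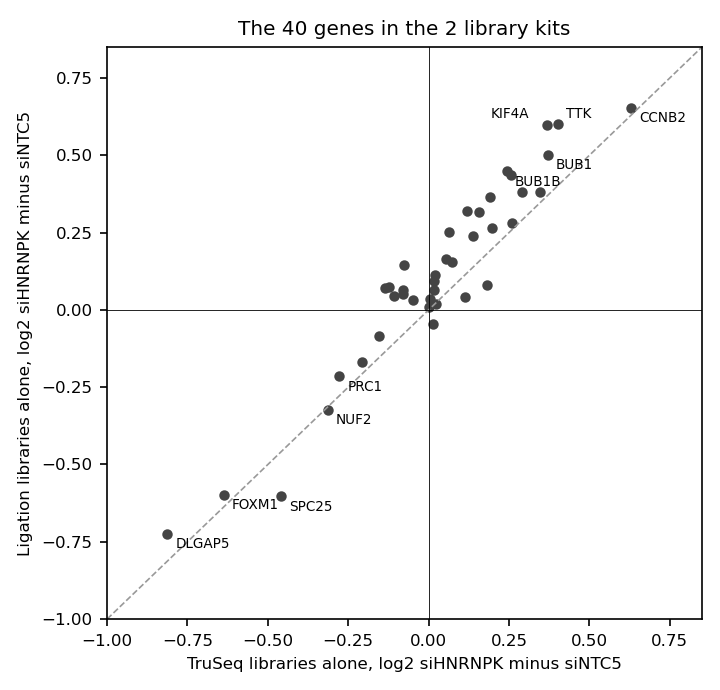
Log2 fold change of the 40 genes (siHNRNPK minus siNTC5) in TruSeq libraries alone (x axis) and Ligation libraries alone (y axis), 2 against 2 libraries each; the dashed line marks equal values. CCNB2 and DLGAP5 are at the ends in both kits, and most genes, TTK, KIF4A and BUB1 among them, lie above the line.

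The Scramble controls had lower levels of nearly all of these genes than siNTC5. In a fit of all 10 libraries on the 25527 gene names that the tables share, 39 of the 40 were lower in Scramble than in siNTC5 and 1, SPC25, was higher, all with an adjusted p under 0.05 in edgeR, where 69.3% of all 14642 genes tested passed, 31.8% lower and 37.5% higher. The median log2 difference was -0.76 over the 40 and 0.04 over all genes. For 39 of the 40, both Scramble libraries lay below every siNTC5 library, as they did for 31.8% of all genes. The summed level of the 40 was 3477 and 3835 CPM in Scramble against 5706 to 6603 in siNTC5 on the same scale. These controls differ from siNTC5 in siRNA name, RNA purification, count table and depth, and the submitters' notes list the hg19 build for them beside hg38; the share of each cannot be told apart. The tables themselves differ: 184 of 11627 shared names with at least 100 counts in both Scramble libraries stand at 0 in all 8 others.

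FOXM1 had the largest drop between the controls, at 45.3 and 42.5 CPM in Scramble replicates 1 and 2 against 156 and 171 in the siNTC5 libraries of the same kit, and the log2 difference was -1.89 ± 0.06 (SE, edgeR adjusted p 9.95e-15). BUB1B and KIF11 were lower by a log2 difference of -1.23 and -1.22, and BUB3, the least of the lower genes, by -0.30. SPC25 went the other way, at 13.4 and 17.3 CPM in Scramble (668 and 798 reads) against 2.8 and 3.0 in the TruSeq siNTC5 libraries, a log2 difference of 2.39 ± 0.18 (edgeR adjusted p 1.78e-09). Other mitotic genes and G1/S genes were lower in Scramble too, 66 of 76 and 38 of 41 tested, with medians of -0.84 and -1.12. Like SPC25, the other mitotic genes KIFC1 and ARHGAP11A were hardly counted in the 8 libraries, with 0 to 10 and 37 to 95 reads. In Scramble they had 3281 and 3420 reads (KIFC1) and 4816 and 5130 (ARHGAP11A). Whether such gaps, that of SPC25 included, are of counting or of expression was not tested.

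Set against Scramble in place of siNTC5, the knockdown libraries were higher for most of the 40 genes; the comparisons share the siHNRNPK libraries, and their values stand side by side here. Against Scramble 37 of the 40 rose, SPC25 fell, and NUF2 (0.10) and DLGAP5 (0.05) did not pass, where 81.2% of all genes passed, 38.8% higher and 42.4% lower. The median log2 fold change was 0.81 against Scramble and 0.06 against siNTC5. BUB1B was at 1.56 and 0.35, CDK1 at 1.40 and 0.28, TTK at 1.33 and 0.50, and BUB1 at 1.31 and 0.44. FOXM1 turned direction, with 1.27 ± 0.06 against Scramble (edgeR adjusted p 2.43e-12) and -0.62 against siNTC5. DLGAP5, at 68.4 and 81.3 CPM in Scramble, was at the level of the knockdown libraries there. With upper-quartile scaling and with unscaled totals all 40 passed, 39 higher, where 45.7% and 46.5% of all genes were higher; the median of all genes was then at 0.15 and 0.16 in place of -0.04.

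With the Scramble libraries added to siNTC5 as controls, 12 of the 40 genes passed, 11 higher and DLGAP5 lower, where 51.7% of all genes passed.

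**Figure D5:**
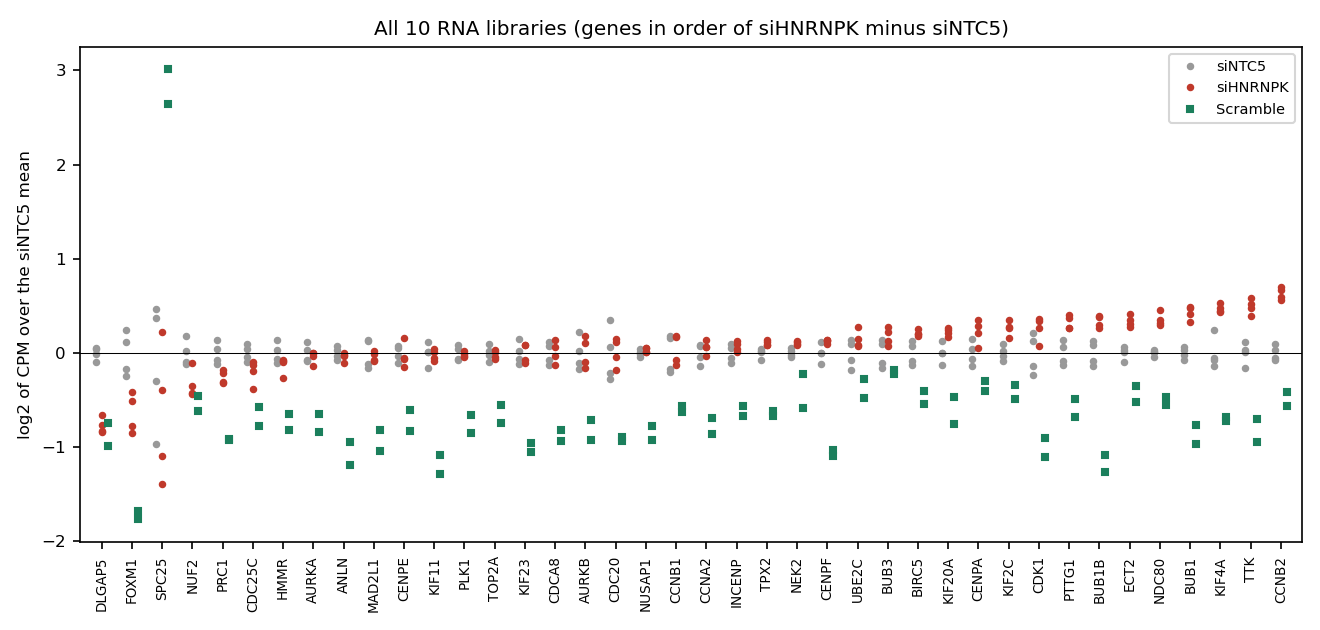
Level of each of the 40 genes in all 10 RNA libraries, as log2 of CPM over the siNTC5 mean (y axis), ordered by log2 fold change of siHNRNPK minus siNTC5; grey is siNTC5, red siHNRNPK and green squares Scramble. The Scramble points lie below the grey points for every gene but SPC25.

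On chromatin the 40 genes lay outside the called domains, with 1 exception. All 40 had a RefSeq position, as did 26987 of the names in the main table. The shares and distances of all genes given here count these names whether expressed or not, while all 40 passed the filter on low counts. No share over expressed genes was computed. With at least 50% of the gene body inside, 0 of the 40 were in lamin B1 domains of control cells (13.0% of all genes) or of HNRNPK siRNA cells (9.23%), 0 in H3K9me2 domains of control cells (9.07%), and 0 in H3K9me3 domains of control (9.43%) or HNRNPK siRNA cells (13.3%). H3K27me3 domains held 1 of the 40 in control (22.7% of all genes) and in HNRNPK siRNA cells (20.9%). That gene was PTTG1, whose whole body lay in a domain of either list, and which was expressed at 95.7 ± 9.0 CPM in siNTC5 (SD, n = 4). By any overlap, lamin B1 domains of control cells touched CENPF over 15.6% of its body and NUF2 over 2.2%, and those of HNRNPK siRNA cells touched none. H3K27me3 domains also touched INCENP over 28.0% and NUF2 over 2.2% in either list. The median distance of the 40 genes to the nearest lamin B1 domain was 1183 kb in control and 2394 kb in HNRNPK siRNA cells, against 971 and 1389.5 kb for all genes. Each list is the only one for its antibody and siRNA, so the spread between ChIP replicates cannot be given, and depth is unknown; these are placements with no test.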

How the data were processed

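RNA was sequenced in 10 libraries of HCT116 cells, and the authors deposited raw counts per gene symbol, in 1 table of 8 libraries and 2 tables of the Scramble controls. Per the submitters' processing notes, STAR 2.7.1a, featureCounts (Subread 2.0.6 for the 8 libraries) and hg38 were used, with hg19 also listed for Scramble; annotation and strand are not given in the sources used here. The authors also deposited 7 lists of ChIP domains with a score per domain, whose unit and caller are not given in the sources used here; bcl2fastq 2.20, fastp 0.23.2, Bowtie2 2.5.1, deepTools 3.1.3 and hg38 are listed for ChIP. Domain scores were not used.

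Libraries were grouped by the labels. The whole table was filtered with filterByExpr, TMM-normalised and tested in edgeR 4.0.16 (limma 3.58.1, R 4.3.3) by the quasi-likelihood test with kit and treatment as terms, Benjamini-Hochberg adjustment over all genes tested and a threshold of 0.05; the 40 genes were read out afterwards. Kit differences in effect used an interaction term, and Scramble entered a fit of all 10 libraries on shared names. SE values derive from the F statistic, and intervals are at 95%. HNRNPK was also compared by an exact permutation test. Gene positions, with a 50% overlap limit for domains, and promoters came from RefSeq GRCh38.p14, and 95.4% of the names matched a position. Positions of ChIP domains were read as hg38 per the submitters' notes.

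Replicate numbers come from the labels. Libraries of the same number deviated together from their group means, with correlations across genes of 0.100, 0.425, 0.336 and 0.265. They were -0.191, -0.156, -0.281 and -0.252 once kit was removed. Removing kit and treatment by a fit makes such values negative even for unrelated libraries, so they cannot tell whether libraries were paired. A replicate block was an alternative.

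The 40 genes and all lists were chosen with earlier results of these data known. Values in every library were given for HNRNPK, for the gene with the largest absolute change in each role, the 4 highest and 4 lowest genes, the smallest interaction p and the largest difference between controls; of each other list, the 2 largest rises and falls were named, with MYBL2, LIN9 and LIN54, except 1 gene of the G1/S list that is not reported here. Alternatives were other normalisations, filters on low counts (none, or a mean of at least 50), DESeq2 1.42.0, no kit term, each kit alone, Scramble as added controls, a minimum absolute log2 fold change of 0.5, each library left out, and other overlap rules for domains. The fit was tested on simulated data: of 98 genes changed by 0.5 and 102 by 1 on the log2 scale among 13933, 66 and 96 were called, with 9 unchanged genes called. For Scramble against siNTC5, 29 of 76 and 111 of 124 were called. Only 200 genes were changed in each simulation, with the same dispersion set for every gene and no kit difference. In the data 71.5% of genes passed and 28.5% differed between kits, so the simulation does not give error rates under those conditions. Figures were made in Python 3.11.15 with matplotlib 3.10.9.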

Additional observations from a re-analysis of the deposited data

Results flagged for a closer look

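Of 82 groups of 4 libraries examined (40 genes and HNRNPK in siNTC5 and in siHNRNPK), 1 held a library that stood far from the other 3. HMMR was at 59.3 CPM in siHNRNPK replicate 4 and between 66.6 and 67.6 CPM in the other knockdown libraries, so that the gap to the nearest library took up 0.883 of the range of the group, above Dixon's limit for 4 values at the 95% level. Chance marks about 1 in 20 such groups. Without that library HMMR did not pass in siHNRNPK against siNTC5, as with it.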

How the results depend on the processing

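Of the 40 genes, 17 to 24 passed in siHNRNPK against siNTC5 under other normalisations, filters, tests and kits, and 19 to 24 with any 1 library left out. Of all genes, 71.5% passed in the main fit, 57.8% in TruSeq and 68.1% in Ligation libraries alone. Shares of all genes with 1 library left out or with a replicate block are not given here, so those counts show stability of the calls only. With a replicate block in place of kit 22 passed, and this pairing changed no call among the 40 genes. With the Scramble libraries added as controls 12 passed, against 51.7% of all genes, and the median log2 fold change of the 40 was 0.27. There 16 other mitotic and 6 G1/S genes passed, and the cause was not tested. Requiring a log2 change of 0.5 or more in size left 4 of the 40, 14 other mitotic and 12 G1/S genes, by its construction. That size was reached by 41.4% of all genes, called or not. Of the 40, 0 to 2 were called for a difference between kits with 1 library left out. The highest was without siNTC5 replicate 1, where 2.58% of all genes were called. By any overlap of 1 base, lamin B1 domains of control cells touched 2 of the 40 genes and H3K27me3 domains 3 in control and 3 in HNRNPK siRNA cells. Upper-quartile and unscaled totals moved the median of all genes against Scramble to 0.15 and 0.16 from -0.04, and unscaled totals that of Scramble against siNTC5 to -0.20 from 0.04. Of the single-gene values in siHNRNPK against siNTC5, 641 kept direction and call, 43 lost and 19 gained a call, and 56 changed sign.

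Sign changes touched 12 genes that were not called with all 8 libraries, and the cause was not tested. Their log2 fold changes were near 0 except for HMMR, at -0.12 (95% interval -0.235 to -0.0051). HMMR changed sign only with added Scramble controls. Upper-quartile scaling gave PLK1 0.0256, AURKA 2.58e-04, MAD2L1 0.0073, CENPE 0.0179, KIF11 0.0194, ANLN 0.0018 and TOP2A 0.0265. A mean of at least 50 counts gave PLK1 0.0224, MAD2L1 0.0041, CENPE 0.0149, KIF11 0.0162 and TOP2A 0.0234. Ligation libraries alone gave PLK1 0.0651, AURKA 0.0720, MAD2L1 0.0728, KIF11 0.0522, ANLN 0.0452 and TOP2A 0.0321, and TruSeq libraries alone CDC20 -0.0757 and CENPE 0.0129. Added Scramble controls gave PLK1 0.187, AURKA 0.157, MAD2L1 0.215, CENPE 0.158, KIF11 0.268, HMMR 0.0834, ANLN 0.222 and TOP2A 0.165. Unscaled totals gave CDC20 -0.0062, AURKB -0.0185, CDCA8 -0.0203 and KIF23 -0.0338. No filter gave CDC20 -0.0023, AURKB -0.0149, CDCA8 -0.0169 and KIF23 -0.0302, and DLGAP5 -0.0036 against Scramble. With 1 library left out, ranges were -0.0438 to 0.0129 for PLK1, -0.0709 to 0.0127 for AURKA, -0.0244 to 0.116 for CDC20, -0.0192 to 0.0615 for AURKB, -0.0110 to 0.0314 for CDCA8, -0.0800 to 0.0388 for CENPE, -0.0636 to 0.0195 for KIF11, -0.0201 to 0.0320 for KIF23 and -0.0442 to 0.0234 for TOP2A, and for DLGAP5 against Scramble -0.0785 to 0.168.

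SPC25 rests on 10 to 71 reads in each of the 8 libraries, so its counting error is large; why so few reads were counted was not tested. Counting error, 1 cell line and replicates of unstated origin limit the rest.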
